A study of Homo sapiens with 6 samples.

Results

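The Fanconi anemia complementation genes are a family named after the inherited disorder in which their loss leaves cells unable to repair DNA crosslinks between strands. The 10 members described here (FANCA, FANCB, FANCC, FANCE, FANCF, FANCG, FANCL, FANCM, FANCD2 and FANCI) were chosen by symbol, and all 10 were found among the 24054 genes of the deposited count table. They were measured by RNA sequencing in A2780, an established human ovarian cancer cell line labelled as wild type, grown with 10% FBS. The 3 treated samples received SCR-6920, an inhibitor of the arginine methyltransferase PRMT5 according to the series title, at 1 µM for 48 h, and the 3 control samples received the solvent DMSO. The labels do not say whether the samples of a group came from separate cultures, so p-values measure the spread between these samples, which may be technical.

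In this pathway FANCM, a DNA translocase, recognises a stalled fork and anchors a core complex of Fanconi proteins on chromatin. The core complex is a ubiquitin ligase whose catalytic RING subunit is FANCL. With the conjugating enzyme UBE2T it attaches a single ubiquitin to FANCD2 and FANCI, which clamp the DNA as a pair and admit nucleases, translesion polymerases and homologous recombination proteins. USP1, with its cofactor WDR48, removes the ubiquitin again. Many genes of this pathway are known to be transcribed mostly in proliferating cells, and E2F factors are among their known regulators.

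Promoter sequences are shown for 4 members that moved in different directions. An E2F-type word (defined below) occurred in FANCL and FANCD2, which fell, and in FANCC, which rose. FANCF, which rose, held only the CCAAT word, which none of the others shown had. Of the members not shown, FANCA, which fell, and FANCM, which did not pass the test, also held it. Each runs from 120 bases before to 6 bases after the RefSeq start site (GRCh38.p14), 5′ to 3′ along the gene's strand, and capitals mark the searched words. The windows are FANCL at chr2:58241320-58241445 (minus strand), FANCD2 at chr3:10026317-10026442 (plus strand), the first of the RefSeq starts of FANCC at chr9:95317704-95317829 (minus strand), and FANCF at chr11:22625818-22625943 (minus strand). FANCL and FANCD2 were lower after SCR-6920, and FANCC and FANCF higher.
FANCL: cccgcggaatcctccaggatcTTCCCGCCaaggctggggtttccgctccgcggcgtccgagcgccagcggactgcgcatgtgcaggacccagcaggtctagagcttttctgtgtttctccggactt
FANCD2: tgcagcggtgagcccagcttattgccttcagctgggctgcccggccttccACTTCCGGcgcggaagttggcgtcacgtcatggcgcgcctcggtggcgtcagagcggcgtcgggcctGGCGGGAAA
FANCC: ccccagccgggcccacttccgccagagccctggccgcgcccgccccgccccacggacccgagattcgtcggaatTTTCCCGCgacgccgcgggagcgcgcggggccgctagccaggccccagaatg
FANCF: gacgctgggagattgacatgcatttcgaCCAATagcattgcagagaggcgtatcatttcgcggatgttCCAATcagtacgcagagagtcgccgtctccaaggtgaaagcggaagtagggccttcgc

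The E2F-type words searched were TTTCCCGC, TTTGGCGC, TTTCGCGC and TTCCCGCC, on both strands, over the full 300 bases from 250 before to 50 after the start. The first and last of these can overlap in a single stretch, as they do at the start site of FANCD2, where the match lies on the opposite strand. RefSeq promoter entries existed for 9 of the 10 members, with 10 entries in all, and FANCI had none. At least 1 E2F-type word was present in 4 of these 10 entries, namely FANCL, FANCD2 and both starts of FANCC, against 5.03% of all 35116 promoters of that length. The CCAAT word was present in 3 of the 10 (FANCA, FANCF and FANCM), against 34.6% of all promoters. The words TTTGAA and TTCGAA, known as the CHR element of mitotic genes, were found in 1 of the 10 (FANCC, outside the stretch printed), against 16.4% of all. The ETS word CCGGAAGT was found in 1 of the 10, FANCD2, against 4.14% of all. These are matches of letters in a window, and binding was not measured.

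After SCR-6920, 7 of the 10 members fell, led by FANCL and FANCI, while FANCC and FANCF rose slightly and FANCM did not pass the test. Log2 changes, always SCR-6920 over DMSO, ran from -1.00 to 0.23, with a median of -0.43 against 0.00 over all genes tested. All 10 members were abundant enough to be tested. An adjusted p under 0.05 by edgeR's quasi-likelihood test, with Benjamini-Hochberg adjustment over all 14233 genes tested, was the threshold. That threshold called 42.0% of genes in either direction, 21.3% lower and 20.6% higher, so the 7 members that fell stand against a background of 21.3% and the 2 that rose against 20.6%. The groups did not overlap in 9 of the 10 members, against 50.6% of all genes tested. Counts assigned to the 10 genes together ran from 22645 to 22777 in the DMSO libraries and from 15114 to 15658 in the SCR-6920 libraries.

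**Figure D1:**
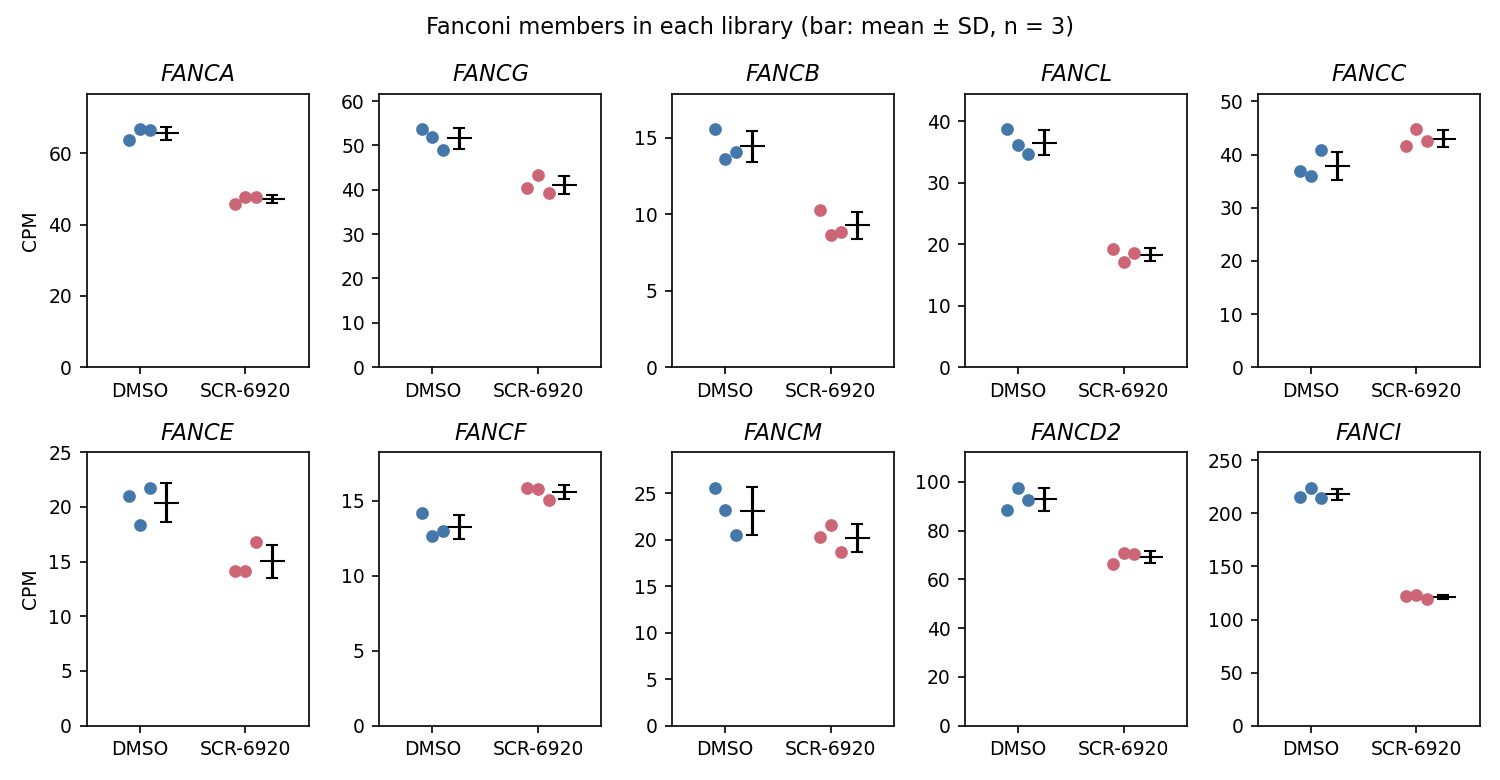
CPM, counts scaled to the library size (vertical axes, starting at 0), of each member in the 3 DMSO and 3 SCR-6920 libraries, 1 point per library, with the mean and SD beside the points. The groups are apart for every member except FANCM, and only FANCC and FANCF are higher in SCR-6920.

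Library totals ran from 38149448 to 39749993 counts. PRMT5 mRNA did not pass the edgeR test (log2 0.02 ± 0.03 SE, adjusted p = 0.705), and its level gives no check of the treatment, whose target is the enzyme. Defining markers of ovarian carcinoma and epithelium were absent or low. Of 11 examined, 7 (PAX8, SOX17, MUC16, MSLN, WFDC2, KRT7 and CDH1) had at most 10 counts in every library. WT1 was also listed but was not among the genes counted. The other 4 were KRT8 at 72 to 123 counts per library, KRT18 at 76 to 154, FOLR1 at 33 to 55 and EPCAM at 1 to 38. EPCAM (log2 1.78, adjusted p = 0.0103, edgeR) and KRT8 (0.57, 0.0456) were called higher, while KRT18 and FOLR1 did not pass. The summed level of the 11 was 4.85 to 5.91 CPM (counts scaled to the TMM-adjusted library size) in DMSO and 7.05 to 9.39 CPM in SCR-6920. Endothelial markers summed to 0 CPM in every DMSO library and at most 0.026 CPM in SCR-6920, and the 4 leukocyte markers to 2.96 to 3.28 CPM in DMSO and 1.87 to 2.44 CPM in SCR-6920. The leukocyte sum was mostly CD68, which fell by 0.54 on the log2 scale (adjusted p = 0.0458, edgeR), while PTPRC had no count in any library. The call of CD68 was lost when DMSO replicate 1 (0.105) or 3 (0.124) was left out, or SCR-6920 replicate 1 (0.108) or 2 (0.139). The 4 fibroblast markers summed to 19.3 to 22.2 CPM in DMSO and 29.2 to 33.9 CPM in SCR-6920. COL1A1 and COL1A2 were the most abundant of them and were called higher (log2 0.94 and 0.33, adjusted p = 5.16e-09 and 0.0172, edgeR). No part of any of these markers in the Fanconi results was tested.

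The mRNA of the ligase subunit fell most. FANCL, the RING subunit that transfers ubiquitin, was at 38.7, 36.1 and 34.8 CPM in DMSO replicates 1 to 3 and at 19.2, 17.1 and 18.6 CPM in SCR-6920 replicates 1 to 3. Every treated library was far below every control library. The level went to 0.502-fold, a log2 change of -1.00 ± 0.07 (SE, n = 3 per group, adjusted p = 5.64e-13, edgeR) with a 95% interval from -1.14 to -0.85. Only 2.15% of the genes tested had a lower log2 change.

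FANCL sits in a module of the core complex with FANCB and FAAP100, and all of these fell. FANCB, a scaffold of that module encoded on the X chromosome, was at 15.6, 13.6 and 14.1 CPM in DMSO and 10.3, 8.64 and 8.86 CPM in SCR-6920. The groups were apart, and the fitted log2 change was -0.64 ± 0.11 (SE, 95% interval from -0.86 to -0.42, adjusted p = 9.56e-06, edgeR). FAAP100, which is not one of the 10 members, fell from 38.6 ± 0.72 to 27.5 ± 2.4 CPM (SD, n = 3), by 0.49 ± 0.07 on the log2 scale (SE). The intervals of FANCB and FANCL touch, while that of FAAP100, from -0.63 to -0.36, lies wholly above that of FANCL; differences between genes were not tested.

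In the module of FANCA and FANCG both members fell and their partner did not pass the test. FANCA, the member most often mutated in patients, was at 63.6, 66.8 and 66.6 CPM in DMSO and 45.8, 47.8 and 47.7 CPM in SCR-6920. It fell by 0.48 ± 0.05 on the log2 scale (SE, adjusted p = 1.44e-09, edgeR), to 0.717-fold. FANCG, which binds FANCA directly, ranged from 49.1 to 53.7 CPM in DMSO and from 39.3 to 43.4 CPM in SCR-6920, without overlap, and fell by 0.33 ± 0.06 (SE, adjusted p = 1.42e-05). FAAP20, a ubiquitin-binding partner of FANCA, had a log2 change of -0.01 with a 95% interval from -0.12 to 0.10 (adjusted p = 0.909, edgeR).

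The module of FANCC, FANCE and FANCF went in both directions. FANCE, which contacts FANCD2, ranged from 18.4 to 21.8 CPM in DMSO and from 14.1 to 16.8 CPM in SCR-6920 and fell by 0.44 ± 0.09 (log2, SE, adjusted p = 0.000187, edgeR). FANCC, its direct partner, was at 36.9, 35.9 and 40.9 CPM in DMSO and at 41.6, 44.8 and 42.5 CPM in SCR-6920. The lowest treated library lay just above the highest control, and FANCC rose by 0.18 ± 0.06 (log2, SE, adjusted p = 0.0152). FANCF, the adaptor that joins this module to the rest of the complex, was at 14.2, 12.6 and 13.0 CPM in DMSO and 15.9, 15.8 and 15.1 CPM in SCR-6920, and rose by 0.23 ± 0.09 (log2, SE, adjusted p = 0.0441).

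Neither rise was firm. Without DMSO replicate 2 the log2 change of FANCC was 0.14 (adjusted p = 0.1, edgeR) and without SCR-6920 replicate 2 it was 0.15 (adjusted p = 0.101), and neither passed. FANCF did not pass when DMSO replicate 2 (0.20, adjusted p = 0.143) or 3 (0.22, 0.105) was left out, nor when SCR-6920 replicate 1 (0.22, 0.119), 2 (0.22, 0.11) or 3 (0.26, 0.056) was. The intervals of the fold change were from 0.06 to 0.30 for FANCC and from 0.04 to 0.42 for FANCF on the log2 scale.

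**Figure D2:**
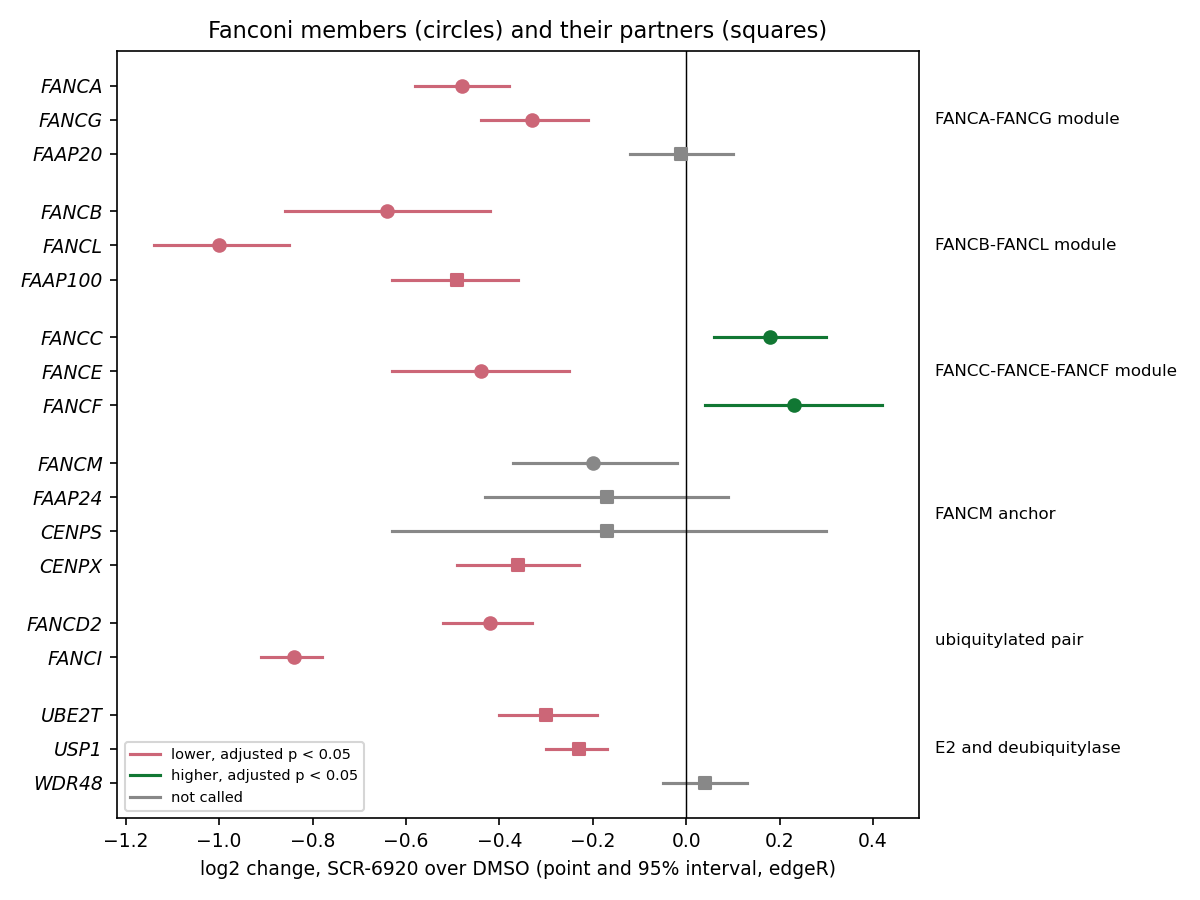
Log2 change of SCR-6920 over DMSO (horizontal axis, point and 95% interval from edgeR) for the 10 members (circles) and the 8 partner and regulator genes (squares), grouped by module. FANCL at -1.00 and FANCI at -0.84 lie farthest to the left, and FANCC and FANCF are the members to the right of 0.

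FANCM, the translocase that anchors the core complex, was the 1 member that did not pass. Its level was 25.6, 23.2 and 20.5 CPM in DMSO and 20.3, 21.6 and 18.7 CPM in SCR-6920. The groups overlapped, since SCR-6920 replicate 2 was above DMSO replicate 3. The log2 change was -0.20 ± 0.08 (SE, 95% interval from -0.37 to -0.02, adjusted p = 0.0607, edgeR). It passed in the fit without DMSO replicate 3 (-0.28, adjusted p = 0.0116) and in the one without SCR-6920 replicate 2 (-0.25, adjusted p = 0.0477). Of its DNA-binding partners, CENPX fell by 0.36 ± 0.06 (SE), whereas FAAP24 and CENPS, both with a log2 change of -0.17, did not pass (adjusted p = 0.307 and 0.592).

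The mRNA of both substrates of the ligase fell, FANCI more than FANCD2. Protein levels and ubiquitylation were not measured. FANCI was at 215.2, 224.2 and 214.4 CPM in DMSO and at 121.8, 123.2 and 119.2 CPM in SCR-6920. The treated libraries lay close together and far below the controls, and the log2 change was -0.84 ± 0.03 (SE, 95% interval from -0.91 to -0.78, adjusted p = 2.6e-19, edgeR). FANCD2 was at 88.5, 97.6 and 92.5 CPM in DMSO and 66.5, 70.9 and 70.4 CPM in SCR-6920, and fell by 0.42 ± 0.05 (log2, SE, adjusted p = 3.61e-09), to 0.746-fold.

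The protein products of FANCI and FANCD2 work as a pair, so the ratio of their mRNA levels per gene length was taken in each library from the deposited FPKM values. FANCI over FANCD2 was 2.94, 2.78 and 2.80 in DMSO and 2.22, 2.10 and 2.05 in SCR-6920. The ratio was lower in all treated libraries, with means of 2.84 ± 0.088 and 2.12 ± 0.086 (SD, n = 3). A two-sided exact permutation test gave p = 0.1, the smallest value that 3 libraries against 3 allow.

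The mRNAs of the enzymes that add and remove the ubiquitin both fell. UBE2T, the conjugating enzyme, fell from 62.5 ± 0.85 to 50.9 ± 2.8 CPM (SD, n = 3), by 0.30 ± 0.05 on the log2 scale (SE, adjusted p = 1.32e-05, edgeR). USP1, the deubiquitylase of FANCD2, fell from 208.4 ± 9.5 to 177.2 ± 1.4 CPM, by 0.23 ± 0.03 (adjusted p = 9.78e-07). Its cofactor WDR48 had a log2 change of 0.04 with an interval from -0.05 to 0.13. In all, 4 of 8 partner and regulator genes fell and none rose by this test, against 21.3% and 20.6% of all genes tested, with a median log2 change of -0.20. None of the 8 rose at an unadjusted p under 0.05 either, and none was called higher by DESeq2 or limma.

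Compared per gene length, the members covered a wide range of levels. In DMSO samples the order by mean deposited FPKM was FANCI (44.6), FANCG (20.3), FANCL (16.6), FANCD2 (15.7), FANCA (10.7), FANCE (7.50), FANCC and FANCF (both 4.05), FANCM (3.00) and FANCB (1.84). Neighbours that overlapped in their DMSO libraries were FANCL with FANCD2 and FANCC with FANCF. In SCR-6920 samples FANCD2 was at 11.1 to 11.9 FPKM and FANCL at 7.72 to 8.66 FPKM, so that these neighbours no longer overlapped and had changed places. FANCC and FANCF were at mean levels of 4.55 and 4.72 FPKM, and their libraries overlapped here too.

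**Figure D3:**
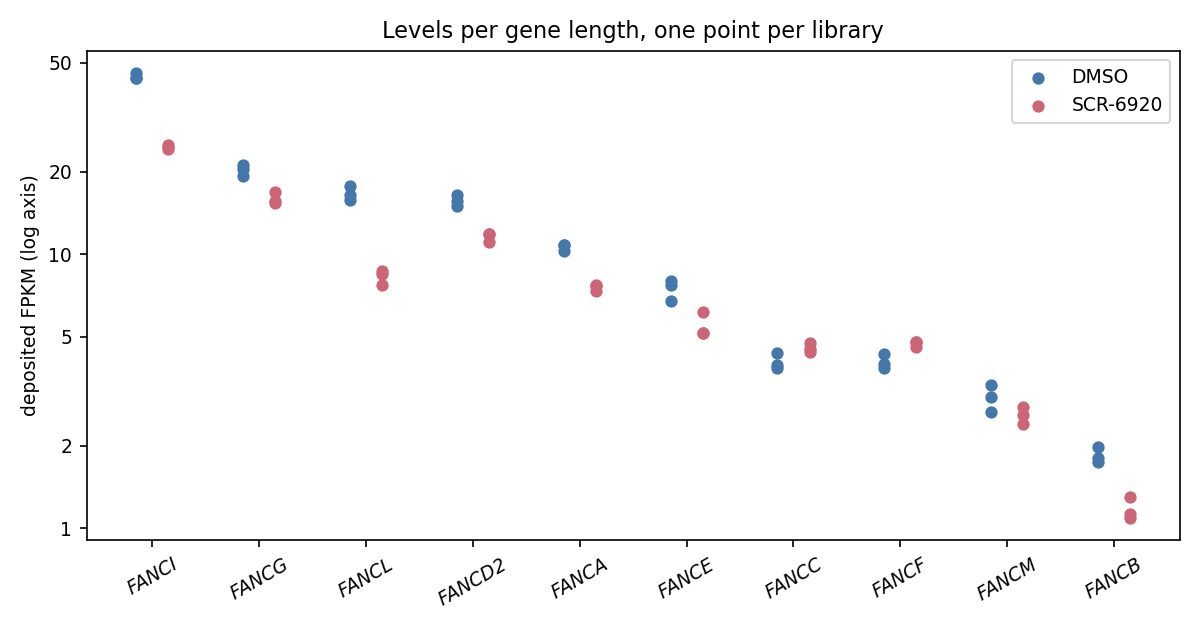
Deposited FPKM (log axis) of each member, ordered by its mean in DMSO, with 1 point per library for DMSO and SCR-6920. FANCI is highest and FANCB lowest in both groups, and FANCL drops from the level of FANCD2 to below it.

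Shares of the summed Fanconi transcript level describe the mixture. The FPKM of the 10 members summed to 128 ± 1.8 in DMSO and 86.7 ± 0.98 in SCR-6920 (SD, n = 3). Of that sum, FANCI made up 34.8 ± 0.72% in DMSO and 28.5 ± 0.33% in SCR-6920, and FANCL 13.0 ± 0.59% and 9.55 ± 0.67%. The shares of FANCC and FANCF were 3.16 ± 0.26% and 3.15 ± 0.18% in DMSO, and 5.25 ± 0.14% and 5.44 ± 0.15% in SCR-6920. Shares within a sum are bound to each other, so these values describe composition and add no further change.

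Of 17 genes that act downstream of FANCD2 and FANCI, 7 fell, 3 rose and 7 did not pass, with a median log2 change of -0.12. Over all genes tested 21.3% were called lower and 20.6% higher, so the number that rose is near the background. The homologous recombination gene XRCC2 fell by 0.41 ± 0.05 (log2, SE), the helicase gene BRIP1 by 0.23 ± 0.05, and the nuclease gene MUS81 by 0.37 ± 0.06. EME1, the partner of MUS81, ERCC1 and RFWD3 also fell. Those that rose were RAD51C, another homologous recombination gene (0.40 ± 0.07), FAN1, a nuclease recruited by ubiquitylated FANCD2 (0.27 ± 0.06), and REV3L, a translesion polymerase subunit (0.15 ± 0.06). PALB2, SLX4 and ERCC4 were among those that did not pass, with log2 changes of 0.01, 0.09 and 0.05. Adjusted p-values of the genes that passed were at most 0.0347 (edgeR). The call of REV3L was lost when DMSO replicate 1 (adjusted p = 0.209) or SCR-6920 replicate 1 (0.0652), 2 (0.0817) or 3 (0.119) was left out, that of EME1 without DMSO replicate 2 (0.0742) and that of ERCC1 without DMSO replicate 3 (0.0603). SLX4 passed, at 0.20 on the log2 scale, when SCR-6920 replicate 1 was left out (adjusted p = 0.0461, edgeR). REV1, which did not pass in the main test (adjusted p = 0.16), was called lower, at -0.14, without DMSO replicate 3 (adjusted p = 0.043, edgeR).

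Genes of proliferating cells moved alongside. Of 20 listed proliferation genes, 17 fell, none rose and 3 did not pass, with a median log2 change of -0.31 and no overlap of the groups in 17. Over all genes tested 21.3% were called lower and 50.6% had no overlap. RRM2, a ribonucleotide reductase subunit, had a log2 change of -0.92 and CCNE2, cyclin E2, of -0.99, while MKI67, a common marker of cycling cells, went to 0.75-fold and E2F1 to 0.769-fold. Other falls were small, with log2 changes of -0.12 for MCM2 and -0.11 for MCM5. TYMS and AURKA did not pass, with log2 changes of 0.00 and -0.01 (adjusted p = 0.924 and 0.841, edgeR). CCNE1, which did not pass either (adjusted p = 0.115), was called lower without SCR-6920 replicate 2 (adjusted p = 0.0238, edgeR). None of the 20 rose at an unadjusted p under 0.05 either, nor under the 16 alternatives run, DESeq2 and limma included. In bulk RNA a smaller share of cycling cells and less RNA per cell cannot be told apart, and the part of the proliferation genes in the Fanconi results was not tested.

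Several members share exon bases with a gene on the opposite strand in GENCODE 29, and whether the authors counted by strand is not stated in the labels or files, so those counts are uncertain. FANCA shares 23.6% of its annotated exon bases with ZNF276, a zinc finger gene that itself fell by 0.48 ± 0.06 (log2, SE). FANCL shares 18.7% with VRK2, a kinase gene that fell by 0.23 ± 0.06, from 87.1 ± 9.2 to 74.1 ± 1.6 CPM (SD, n = 3). FANCF shares 11.3% with GAS2, which was at 0.338 CPM or less in every library, and FANCI shares 5.90% with POLG, whose log2 change was 0.04 ± 0.05 (adjusted p = 0.576, edgeR). FANCD2 shares 3.12% with FANCD2OS, which had 1 count in all 6 libraries together. FANCC shares 1.99% with the pseudogene AL157384.1 and 2.55% with the antisense gene AL354893.2, and FANCL also shares 0.995% with the antisense gene AC007250.1. FANCB, FANCE, FANCG and FANCM share none. These shares refer to GENCODE 29 and may not hold for the gene models the authors counted, which differ in length. FANCA has 9736 exon bases in GENCODE 29 against 6182 implied by its deposited counts and FPKM, and FANCB 3593 against 7874.

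All 7 falls kept their direction and passed the threshold under each of the 16 alternatives run, as the plot of alternatives shows. Their log2 changes moved least for FANCI, from -0.86 to -0.82, and most for FANCB, from -0.73 to -0.39. The value of -0.39 came from log2(FPKM + 1), a scale that understates the change of a gene with so low an FPKM.

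**Figure D4:**
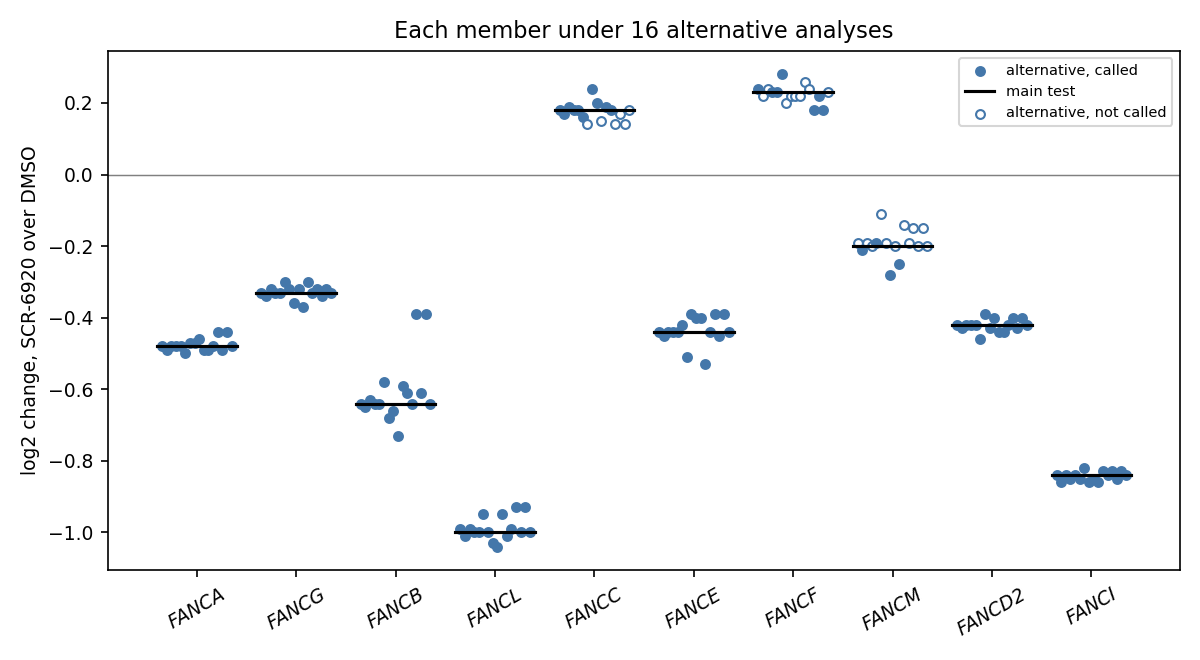
Log2 change of each member (vertical axis) in 16 alternative analyses (points) beside the main test (line). Filled points passed that analysis's threshold; the 7 members that fell have only filled points, while FANCC, FANCF and FANCM have open and filled ones.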

How the data were processed

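Messenger RNA of 6 A2780 samples, 3 with DMSO and 3 with SCR-6920, was sequenced with a stranded Illumina kit, per the labels' protocols. HISAT2 (alignment), HTSeq (counting) and the build GRCm38 are listed in the submitters' processing notes. GRCm38 is a mouse build, so the build used is unclear and coordinates come only from the RefSeq promoter table. The authors deposited raw counts per gene and FPKM values, which equal the count over the library total and 1 gene length for 21442 genes with any count (relative tolerance 1e-06). The test was that of edgeR 4.0.16 in R 4.3.3 (filterByExpr, TMM, robust quasi-likelihood fit on the group) over all genes. The SE is the log2 change over the root of F, and intervals are 95%. The fits were tested on simulated data. Alternatives were other scalings, filters, a replicate block, leaving out each library, DESeq2 1.42.0, limma 3.58.1 on log2(FPKM + 1 or + 0.1), and an adjusted p under 0.01. All members are named whatever their result. Of the other lists, the genes with the smallest p are named, up to 4 each way. Some listed genes are not reported here by name. SLX4, ERCC4, PALB2, REV1, CCNE1, TYMS and AURKA, which did not pass, were chosen after their values were seen. So were CCNE2, MKI67, E2F1, MCM2, MCM5 and the overlapping genes. The members, lists and alternatives were chosen with earlier results of these data known. No library repeated another of its group: chi-square per gene was at least 3.74, above counting noise.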

Additional observations from a re-analysis of the deposited data

How the results depend on the processing

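The 7 falls kept their direction and call in all 16 alternatives, no member changed sign, and the number of lower partner genes stayed at 4. The number of members that rose, 2 in the main test, was 1 with library size only, without the low-count filter, with DESeq2 and in the 3 limma fits, 0 at an adjusted p under 0.01, and between 0 and 2 without 1 replicate. FANCF lost its call with library size only (0.22, adjusted p = 0.0567), without the low-count filter (0.24, 0.0599), with DESeq2 (0.24, 0.0601) and at an adjusted p under 0.01 (0.23); without 1 replicate it ranged from 0.20 to 0.28. FANCC lost its call in limma on log2(FPKM + 1) with and without a filter (both 0.14, adjusted p = 0.0796 and 0.139) and on log2(FPKM + 0.1) (0.17, 0.0798), and at an adjusted p under 0.01 (0.18); without 1 replicate it ranged from 0.14 to 0.24. FANCM gained a call with library size only (-0.21, adjusted p = 0.0477) and with the replicate block (-0.19, 0.0448), and ranged from -0.28 to -0.11 without 1 replicate. Of the downstream repair genes, 3 rose and 7 fell in the main test. The number that rose was 2 with library size only, with DESeq2, in the filtered limma fits and at an adjusted p under 0.01. Without 1 replicate it was 2 or 3. In limma on log2(FPKM + 1) without a filter 1 rose and 5 fell, and without DMSO replicate 2 the number that fell was 6. The labels do not say that the replicate number pairs samples, so it was not treated as a pairing in the main test. Deviations of samples with the same number had correlations of 0.0066, 0.005 and 0.038 over all genes tested. Noise of single genes can hide a shared part, so these values cannot show that the samples were unpaired. The replicate block changed no member's call but that of FANCM. The causes were not tested. FANCB and FANCF, with 332 to 616 counts per library, had the lowest counts on average, which limits their precision (SE 0.11 and 0.09).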
